A study of Mus musculus with 10 samples.

Results

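The 9 myelin and mature oligodendrocyte genes Mbp, Mog, Mag, Mobp, Cnp, Mal, Cldn11, Ermn and Opalin were taken by name from the 55536 mouse genes counted in RNA-Seq of brain tissue from Snx14 knockout (KO) and control mice at 1 year of age. All 9 were found in each of the 10 libraries, and all passed the filter on low counts in every comparison. Each of 5 mice gave a cerebellum and a cortex library. Controls 1 and 2 were heterozygous for Snx14 (labelled Het), control 3 was wild type (WT), and KO mice 1 and 2 carried a frameshift deletion in both copies. The labels name all 3 of the former as controls, and the deletion is constitutive, so no transgene or Cre separates the groups. The tissue is a mix of cells, and its level of a transcript does not separate the number of cells from the amount of RNA in each of them. Levels are counts-per-million (CPM) values scaled with the trimmed mean of M values (TMM) over all 10 libraries, unless another unit is named.

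Oligodendrocytes wrap axons of the central nervous system in sheets of membrane, and compact myelin forms where the cytoplasmic faces of these sheets are drawn together. Mbp (myelin basic protein) and Mobp act at that cytoplasmic face, Cnp keeps cytoplasmic channels open, Mag faces the axon, and Mog lies on the outermost surface. Mal sorts proteins and lipids to the myelin membrane, Cldn11 forms the tight junctions between its layers, Ermn is a cytoskeletal protein of the cytoplasmic loops, and Opalin is a small transmembrane glycoprotein of oligodendrocytes. Snx14 encodes an endoplasmic reticulum protein of lipid handling, and myelin is a lipid-rich membrane.

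Library totals ranged from 16088310 to 22975355 gene counts. Snx14 itself was at 42.7, 39.8 and 73.2 CPM in controls 1, 2 and 3 and at 15.5 and 17.4 CPM in KO mice 1 and 2 in cerebellum. In cortex it was at 34.3, 34.9 and 50.8 CPM in controls and at 14.8 and 16.1 CPM in KO mice. The WT mouse, control 3, thus had the highest level in both tissues, above the Het controls. Summed levels of 10 granule cell genes were 4611 to 5422 CPM in cerebellum and 106 to 139 CPM in cortex, as the tissue labels require. The 11 striatum genes summed to 1893 to 4657 CPM in cortex controls and to 619 to 1181 CPM in cortex KO libraries, so the cortex libraries differed in their level of striatal transcripts. Xist was below 4 CPM and Ddx3y above 60 CPM in the 4 libraries of control 2 and KO 2, and the reverse held in the other 6 libraries. The labels do not give sex, and 1 of the 3 controls, a Het mouse, and 1 of the 2 KO mice were of the kind with low Xist.

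On the GRCm38 build, Mog lay at chr17:37010743-37023398 on the minus strand, Mag at chr7:30899176-30914873 on the minus strand, Mobp at chr9:120149707-120181484 on the plus strand and Cnp at chr11:100574904-100591729 on the plus strand. Mal was at chr2:127633226-127656695 and Ermn at chr2:58045113-58052864, both on the minus strand. Cldn11 was at chr3:31149920-31164324 on the plus strand, Opalin at chr19:41061710-41077113 on the minus strand and Mbp at chr18:82475146-82585637 on the plus strand. The values are sums over all annotated exons of a gene, so isoforms were not separated. Because strand was not used in counting, reads of an overlapping gene could not be told apart. This concerned 6.52% of the exonic bases of Ermn, shared with Galnt5, 4.23% of those of Cnp, shared with Dnajc7, and 1.15% of those of Mobp, shared with Gm38642. No exonic base of the other 6 genes was shared.

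The genes differed widely in level. Per transcript length, as TPM (transcript counts divided by length and by the library's sum), Mbp was the highest in all 4 groups of libraries, with a mean of 966 ± 187 TPM (SD, n = 3) in control cerebellum and 916 ± 281 TPM (SD, n = 3) in control cortex. Mobp, Cnp and Mal followed in this order in each group, and Opalin was the lowest. In control cerebellum Mobp reached 371 ± 53.7 TPM, Cnp 353 ± 31.4 TPM and Mal 129 ± 20.9 TPM. The ranges of Mobp and Cnp overlapped there, as did those of Mal and Mag, of Mag and Cldn11, and of Mog and Ermn, so these neighbors were not separated by more than their spread. Mbp exceeded Mobp 2.60-fold and Ermn exceeded Opalin 8.08-fold in control cerebellum, both without overlap. In control cortex the same ratios were 2.25 and 2.92, and the 6 steps between Mobp and Ermn all had overlapping ranges, although the higher gene led in all 3 libraries at each of these steps. In KO cortex no step overlapped. The 9 genes together took between 0.342% and 0.666% of the gene counts of a library.

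**Figure D1:**
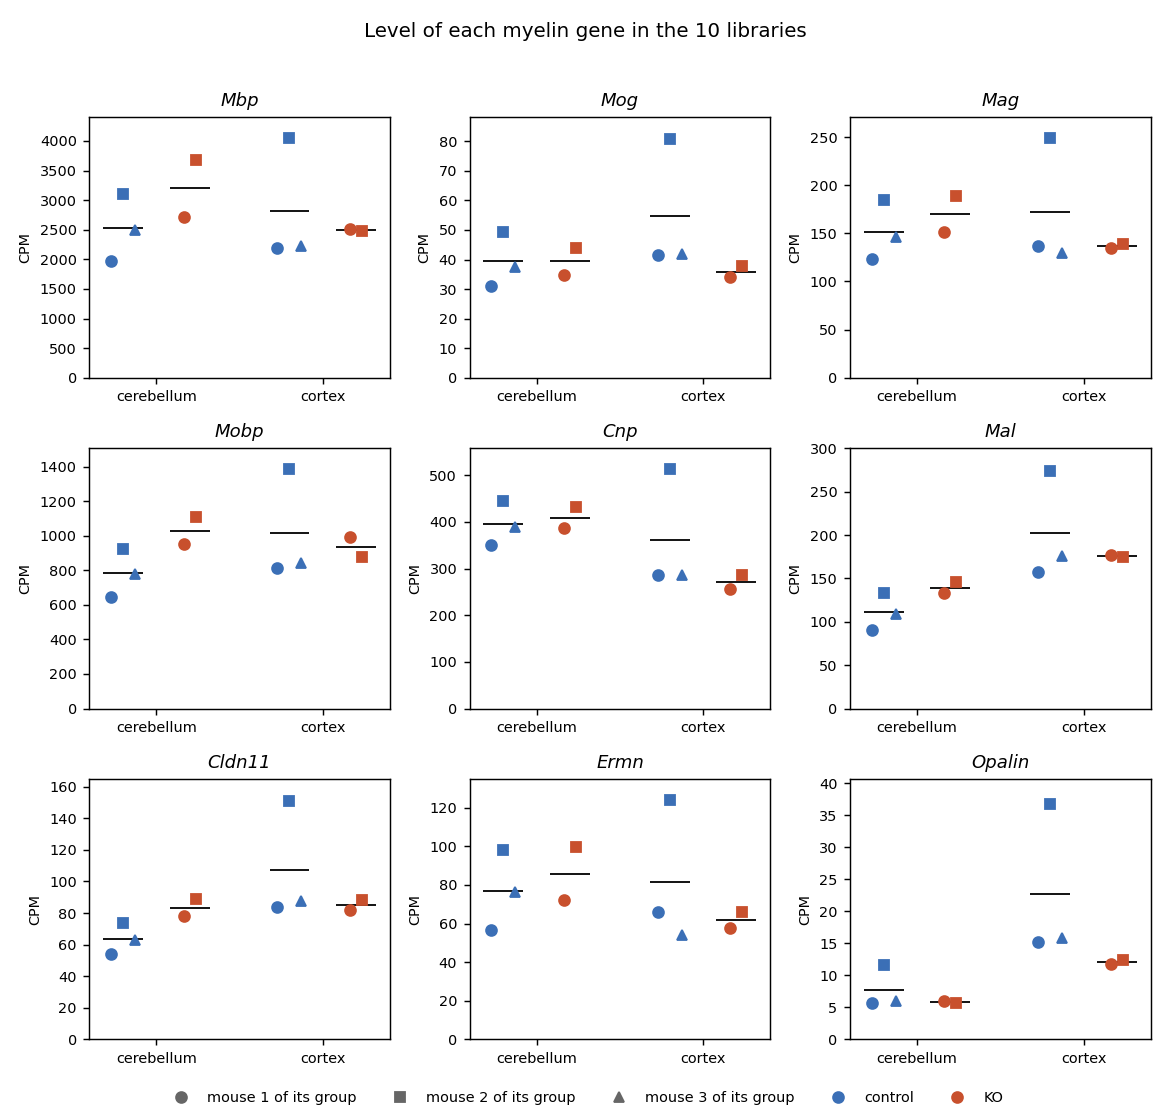
Level of each of the 9 genes in CPM (linear axis from 0) in the 10 libraries, with control libraries in blue, KO libraries in red, a marker shape for the mouse number within its group and a black line at each group mean. Control 2 (blue square) is the highest control in all 9 panels in both tissues, and in cortex it stands far above the other 4 libraries, as for Opalin at 36.8 CPM against 11.7 to 15.8 CPM.

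Control 2 was the highest control for the whole gene set, and in cortex it stood apart from the other controls. In cerebellum the controls were graded instead, with sums of the 9 genes of 3336, 5017 and 4105 CPM in controls 1, 2 and 3. KO 2 was above them there at 5793 CPM. Control 2 was the highest of the 3 controls for 9 of 9 genes in cerebellum, where this held for 36.6% of all tested genes, and for 9 of 9 in cortex, where it held for 40.7%. It was the highest in both tissues for 22.9% of genes. Over the mean of controls 1 and 3, its level was 1.20- to 2.01-fold in cerebellum (median 1.37) and 1.64- to 2.37-fold in cortex (median 1.83). The median coefficient of variation between controls was accordingly 20.5% in cerebellum, against 9.22% for all tested genes, and 37.6% in cortex, against 13.0%. Between the KO libraries it was 10.6% in cerebellum and 5.65% in cortex. In cerebellum the controls fell in the same order for all 9 genes, control 1 lowest and control 3 between, an order shared by 16.6% of all tested genes. KO 2 was above KO 1 for 8 of 9 genes in cerebellum (49.1% of all genes) and for 6 of 9 in cortex (53.5%).

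Other cell markers moved with control 2 in cortex. Its striatum genes summed to 4657 CPM against 2087 and 1893 CPM in the other controls, and all 11 of them were highest there. None of the 11 was at 0 in any cortex library. Its summed level of 8 oligodendrocyte precursor genes was 402 CPM against 573 and 561 CPM, that of 8 astrocyte genes was 3522 CPM against 4798 and 4569 CPM, and that of 9 cortical excitatory neuron genes was 1565 CPM against 2034 and 1957 CPM. In cerebellum its choroid plexus genes summed to 1208 CPM against 2873 and 3422 CPM, and its precursor genes to 610 CPM against 748 and 747 CPM. The part of these differences, and of sex, in the higher myelin gene levels of control 2 was not tested.

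**Figure D2:**
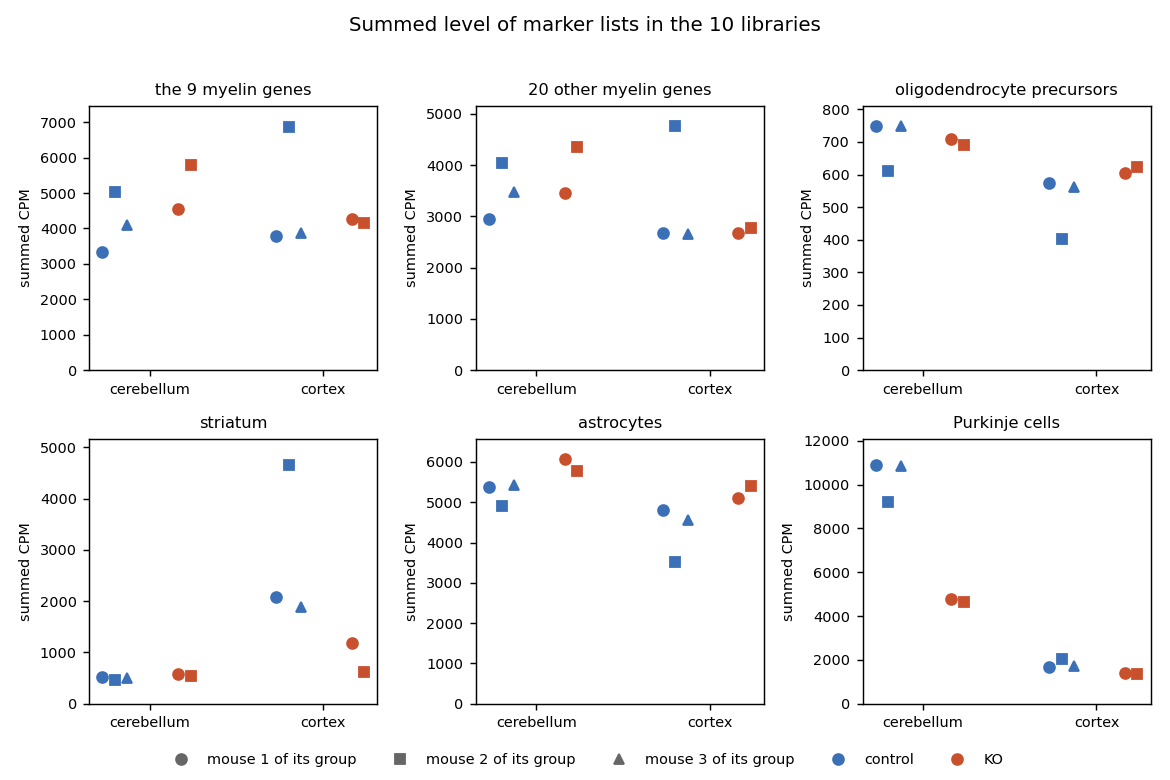
Summed CPM (linear axis from 0) of 6 marker lists in the 10 libraries, with control libraries in blue, KO libraries in red and a marker shape for the mouse number within its group. In cortex, control 2 is highest for the 9 myelin genes (6864 CPM), the 20 other myelin genes (4763 CPM) and the striatum list (4657 CPM), and lowest for precursors (402 CPM) and astrocytes (3522 CPM), while the Purkinje cell list separates control from KO cerebellum.

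None of the 9 genes passed the test between KO and control cerebellum, where 1.55% of all tested genes did. A gene was called when edgeR's quasi-likelihood test gave it an adjusted p under 0.05 and its log2 fold change exceeded 0.5 in either direction. DESeq2 called none either, and 3 genes had an unadjusted p under 0.05. Of the proteins of compact myelin, Mbp was at 1975, 3100 and 2496 CPM in controls 1, 2 and 3 and at 2722 and 3682 CPM in KO mice 1 and 2. Only KO 2 was above every control, and the log2 fold change was 0.34 ± 0.20 (SE, adjusted p = 0.544). Mobp was at 648, 921 and 781 CPM in controls and at 951 and 1106 CPM in KO mice. Both KO libraries lay above all controls, with a log2 fold change of 0.39 ± 0.15 (adjusted p = 0.297).

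The membrane sorting and junction genes had a like pattern in cerebellum. Cldn11 was at 54.3, 73.5 and 63.2 CPM in controls and at 78.0 and 89.0 CPM in KO mice, again without overlap, and its log2 fold change was 0.38 ± 0.12 (adjusted p = 0.206). Mal was at 90.3, 133 and 109 CPM in controls and at 133 and 146 CPM in KO mice, where KO 1 and control 2 were level to within 1 CPM, and its log2 fold change was 0.32 ± 0.14 (adjusted p = 0.364). Mobp and Cldn11 were thus 2 of 9 genes with both KO libraries above all controls, a pattern that 15.5% of all tested genes had.

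The genes of the inner and outer myelin surfaces overlapped between genotypes in cerebellum. Mag was at 124, 185 and 146 CPM in controls and at 151 and 188 CPM in KO mice, with a log2 fold change of 0.16 ± 0.16. Mog was at 31.1, 49.5 and 37.6 CPM in controls and at 34.7 and 44.0 CPM in KO mice, a log2 fold change of -0.01 ± 0.19 that became 0.01 without scaling. Cnp reached 351, 445 and 390 CPM in controls and 386 and 432 CPM in KO mice, with a log2 fold change of 0.04 ± 0.11. For these genes the KO libraries fell within the range of the controls or just above it. Ermn was at 56.6, 98.0 and 76.4 CPM in controls and at 72.0 and 99.6 CPM in KO mice. Opalin was at 5.65, 11.6 and 5.95 CPM in controls and at 5.98 and 5.67 CPM in KO mice, so that only control 2 stood apart, and its log2 fold change was -0.42 ± 0.31 (adjusted p = 0.648).

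The median log2 fold change of the 9 genes in cerebellum was 0.16, beside 0.000899 over all tested genes. It was 0.37 without control 2 and -0.02 without KO 2, so single libraries decided its size. Without control 2, Cldn11 was called, with a log2 fold change of 0.50 ± 0.10 (adjusted p = 0.0406), in a fit that called 2.08% of genes. Mal then reached 0.48 ± 0.10 (adjusted p = 0.0442), short of the required fold change, and Mobp 0.52 ± 0.12 (adjusted p = 0.0666). Control 2 was the highest control for all 9 genes, so leaving it out raised each of these values by the choice of library. The controls left were all of the kind with high Xist, beside KO mice of both kinds. With control 2 included, the 11 Purkinje cell genes summed to 9203 to 10908 CPM in controls and to 4650 to 4778 CPM in KO mice, with 11 of 11 called lower. The 8 astrocyte genes summed to 4917 to 5439 CPM in controls and to 5771 to 6067 CPM in KO mice, with 3 of 8 called higher. Of these 8, 7 had a log2 fold change above 0, and Slc1a3 went the other way (-0.43, not called). Slc1a3 was at 1486, 1287 and 1483 CPM in controls and at 1104 and 1015 CPM in KO mice. The 8 microglia genes summed to 184 to 206 CPM in controls and to 265 to 275 CPM in KO mice, with 2 of 8 called higher. KO 1 had 64.4 CPM of choroid plexus genes against 1208 to 3422 CPM in the other cerebellum libraries. The part of these differences in the myelin gene levels was not tested.

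In cortex all 9 log2 fold changes were below 0, and none of the genes was called. No gene was called there by edgeR (background 0.0%), while 1139 genes had an unadjusted p under 0.05 and DESeq2 called 49, none of them among the 9. The smallest adjusted p of the edgeR test in cortex was 0.636, so Snx14 itself was not called there either. Opalin had the lowest unadjusted p of the 9 and the only one under 0.05. Opalin was at 15.3, 36.8 and 15.8 CPM in controls 1, 2 and 3 and at 11.7 and 12.4 CPM in KO mice 1 and 2, with a log2 fold change of -0.90 ± 0.39 (adjusted p = 0.838). Mog was at 41.4, 80.7 and 41.8 CPM in controls and at 34.1 and 37.7 CPM in KO mice, with a log2 fold change of -0.60 ± 0.29 (adjusted p = 0.875). Cnp was at 287, 514 and 286 CPM in controls and at 255 and 285 CPM in KO mice, with a log2 fold change of -0.41 ± 0.26. For these 3 genes both KO libraries were below all controls, a pattern of 14.2% of all tested genes, and for Cnp the gap between KO 2 and control 3 was under 1 CPM.

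The other 6 genes overlapped between genotypes in cortex. Mbp was at 2191, 4048 and 2227 CPM in controls and at 2513 and 2480 CPM in KO mice, which placed both KO libraries between controls 3 and 2. Mobp likewise was at 815, 1386 and 841 CPM in controls and at 993 and 879 CPM in KO mice. Mal was at 158, 274 and 176 CPM in controls and at 177 and 175 CPM in KO mice. Their log2 fold changes were -0.16 ± 0.27, -0.10 ± 0.23 and -0.19 ± 0.22. Cldn11 was at 83.8, 151 and 87.4 CPM in controls and at 81.7 and 88.5 CPM in KO mice, Mag at 137, 249 and 130 CPM and at 135 and 139 CPM, and Ermn at 65.9, 124 and 54.2 CPM and at 57.8 and 65.9 CPM. For each of these 6 genes control 2 was above the other 4 libraries.

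The sign of the cortex values rested on control 2. With all libraries the median log2 fold change was -0.32, beside 0.00122 over all tested genes, and without control 2 it was 0.06, with 6 of 9 values above 0. Mbp and Mobp were then at 0.19 ± 0.07 and 0.19 ± 0.08, with adjusted p-values of 0.276 and 0.347, while Opalin stayed at -0.35 ± 0.13 (adjusted p = 0.288) and Mog at -0.20 ± 0.09 (adjusted p = 0.465). That fit called 0.517% of genes and none of the 9. The 11 striatum genes were lower in KO cortex with and without control 2, with 7 of 11 called lower without it. The part of this difference in the myelin gene levels was not tested.

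**Figure D3:**
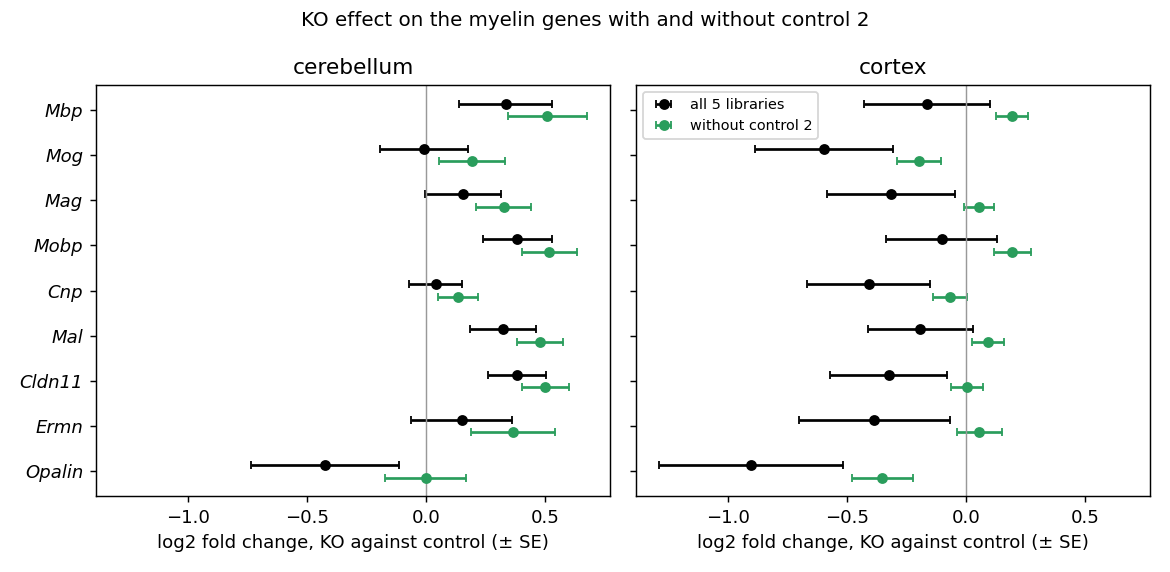
Log2 fold change of KO against control (horizontal axis, with SE bars) for each of the 9 genes in cerebellum and cortex, from all 5 libraries of the tissue (black) and without control 2 (green). In cortex the median moves from -0.32 to 0.06 when control 2 is left out, and in cerebellum from 0.16 to 0.37, while Opalin and Mog keep the lowest values in cortex in both fits.

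The KO effect was more positive in cerebellum than in cortex for all 9 genes, but no difference passed the test (adjusted p under 0.05, background 0.102%). The differences of the log2 fold changes lay between 0.47 and 0.73, with a median of 0.52, beside 0.03 over all tested genes. Cldn11 had the difference of 0.73 ± 0.31, with an unadjusted p of 0.0413, the only one under 0.05, and an adjusted p of 0.570. DESeq2 called none of the 9 as well. The median was 0.48 with the animal as a block, 0.14 without the cortex library of control 2 and 0.32 without that mouse in both tissues.

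Because each mouse gave both tissues, the ratio of its cerebellum to its cortex level was taken for each gene. For Cldn11 the ratio was 0.648, 0.488 and 0.722 in controls 1, 2 and 3 and 0.955 and 1.01 in KO mice 1 and 2. For Mal it was 0.573, 0.485 and 0.620 in controls and 0.750 and 0.836 in KO mice. Both KO mice thus exceeded all 3 controls, and this also held for Mog, Mobp, Cnp and Opalin, which made 6 of 9 genes, beside 15.5% of all tested genes. For Mbp, Mag and Ermn control 3 was above KO 1. Control 2 had the lowest ratio for all 9 genes.

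**Figure D4:**
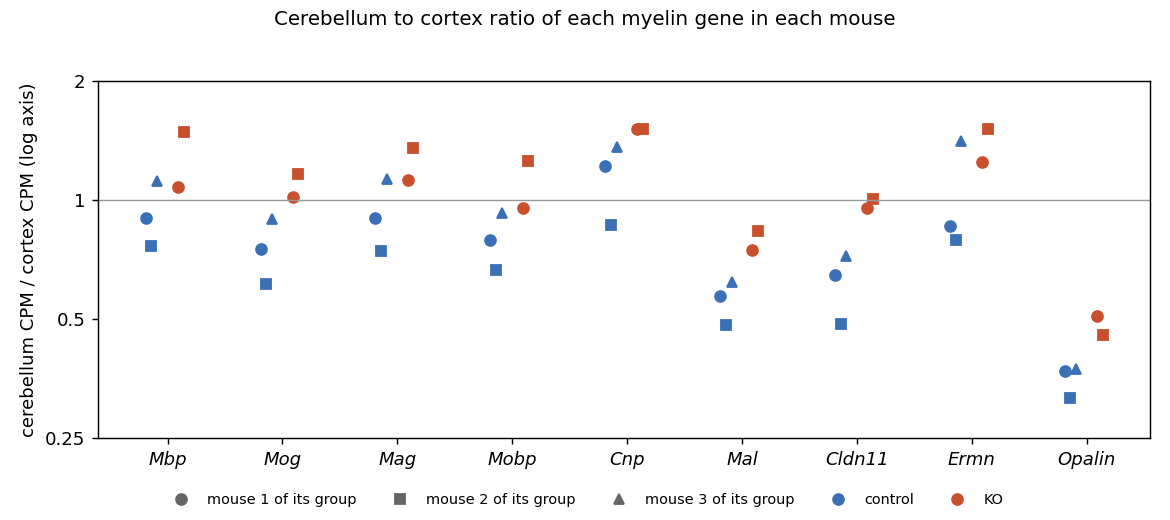
Ratio of cerebellum to cortex CPM of each of the 9 genes in each of the 5 mice (log axis), with control mice in blue, KO mice in red and a marker shape for the mouse number within its group. All Mal and Opalin ratios lie below 1, and for Cldn11 the KO ratios (0.955 and 1.01) lie above those of the controls (0.488 to 0.722).

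Between the tissues, 3 of 9 genes were lower in cerebellum than in cortex of the controls, beside 21.8% of all tested genes called lower and 40.9% called in either direction. Opalin had 5.65 to 11.6 CPM in cerebellum and 15.3 to 36.8 CPM in cortex, and its log2 fold change was -1.55 ± 0.36 (adjusted p = 0.00344). Mal had 90.3 to 133 CPM and 158 to 274 CPM, and its log2 fold change was -0.87 ± 0.19 (adjusted p = 0.00254). Cldn11 had 54.3 to 73.5 CPM and 83.8 to 151 CPM, and its log2 fold change was -0.76 ± 0.20 (adjusted p = 0.00769). All cerebellum libraries lay below all cortex libraries for these 3 of 9 genes, as for 30.2% of all tested genes. Without the cortex library of control 2 the log2 fold change of Cldn11 was -0.44 (adjusted p = 0.00551), which is short of the required fold change, while Opalin (-1.01) and Mal (-0.60) were still called.

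The other 6 genes were not called between the tissues in controls. Mog was at -0.48 ± 0.25 (adjusted p = 0.128) and Mobp at -0.37 ± 0.20 (adjusted p = 0.132), and both were lower in cerebellum in all 3 mice, as were the 3 called genes, which made 5 of 9 genes beside 36.8% of all genes. Mag (-0.18 ± 0.23), Mbp (-0.16 ± 0.24) and Ermn (-0.08 ± 0.28) went in different directions in different mice and turned to values above 0 without the cortex library of control 2. Cnp was the only one of the 9 with a value above 0 (0.13 ± 0.20).

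In KO mice none of the 9 genes was called between the tissues by edgeR, beside 35.6% of all tested genes, although 2 had an unadjusted p under 0.05 and DESeq2 called 2. These were Opalin and Cnp. Opalin was at 5.98 and 5.67 CPM in cerebellum and at 11.7 and 12.4 CPM in cortex, a log2 fold change of -1.05 ± 0.45 (adjusted p = 0.0805). Cnp was at 386 and 432 CPM in cerebellum and at 255 and 285 CPM in cortex, a log2 fold change of 0.60 ± 0.25 (adjusted p = 0.0695). With the animal as a block, which matches the tissues of a mouse, both were called, Opalin at -1.05 (adjusted p = 0.000144) and Cnp at 0.60 (adjusted p = 0.00321). In both KO mice 5 of 9 genes, Mbp, Mog, Mag, Cnp and Ermn, had the higher level in cerebellum, beside 44.0% of all genes, and 2 of 9, Mal and Opalin, had the lower level there, beside 39.3% of all genes. The ratios of cerebellum to cortex were 1.08 and 1.48 for Mbp, 1.02 and 1.17 for Mog, 1.12 and 1.35 for Mag and 1.25 and 1.51 for Ermn in KO mice 1 and 2, and none of these 4 differences was called. The log2 fold change was -0.33 ± 0.23 for Mal and -0.03 ± 0.24 for Cldn11, and Cldn11 and Mobp went in different directions in the KO mice.

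Since the 9 genes moved together between mice, each was also expressed relative to the geometric mean of 20 other myelin and oligodendrocyte genes of the same library. On this relative scale the median coefficient of variation between controls was 4.95% in cerebellum and 4.98% in cortex. In cerebellum the relative level of Mobp was 12.3, 12.8 and 12.9 in controls 1, 2 and 3 and 16.7 and 14.8 in KO mice 1 and 2. In cortex the relative level of Mobp was 17.2, 16.7 and 18.4 in controls and 22.4 and 18.8 in KO mice. The relative level of Mbp was 37.4, 43.2 and 41.4 in control and 47.7 and 49.2 in KO cerebellum, and 46.2, 48.9 and 48.8 in control and 56.8 and 53.0 in KO cortex. For Mbp and Mobp both KO libraries were above all controls in both tissues. The same held for Ndrg1, itself among those 20 genes, so the pattern was not particular to Mbp and Mobp. No share of all tested genes is set beside this, because the divisor itself orders the genes that do not follow myelin: it was 52.8, 71.7 and 60.3 CPM in control and 57.1 and 74.8 CPM in KO cerebellum, and 47.4, 82.8 and 45.7 CPM in control and 44.3 and 46.8 CPM in KO cortex.

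Mal and Cldn11 were above all controls on the relative scale in cerebellum. The relative level of Cldn11 was 1.03, 1.03 and 1.05 in controls and 1.37 and 1.19 in KO cerebellum, and that of Mal was 1.71, 1.85 and 1.81 in controls and 2.32 and 1.95 in KO cerebellum. In cortex both overlapped between genotypes. There, Opalin (0.322, 0.444 and 0.347 in controls, 0.264 and 0.265 in KO mice) and Mog (0.872, 0.974 and 0.916 in controls, 0.771 and 0.806 in KO mice) were below all controls. Mag, Cnp and Ermn overlapped in both tissues. A fit of all genes with libraries scaled to these 20 genes called none of the 9 between KO and control in either tissue, with adjusted p-values of at least 0.931, beside 0.756% of genes called in cerebellum and 0.0521% in cortex. This scaling makes all genes that do not follow myelin vary between mice, which enters the spread that edgeR shares across genes.

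**Figure D5:**
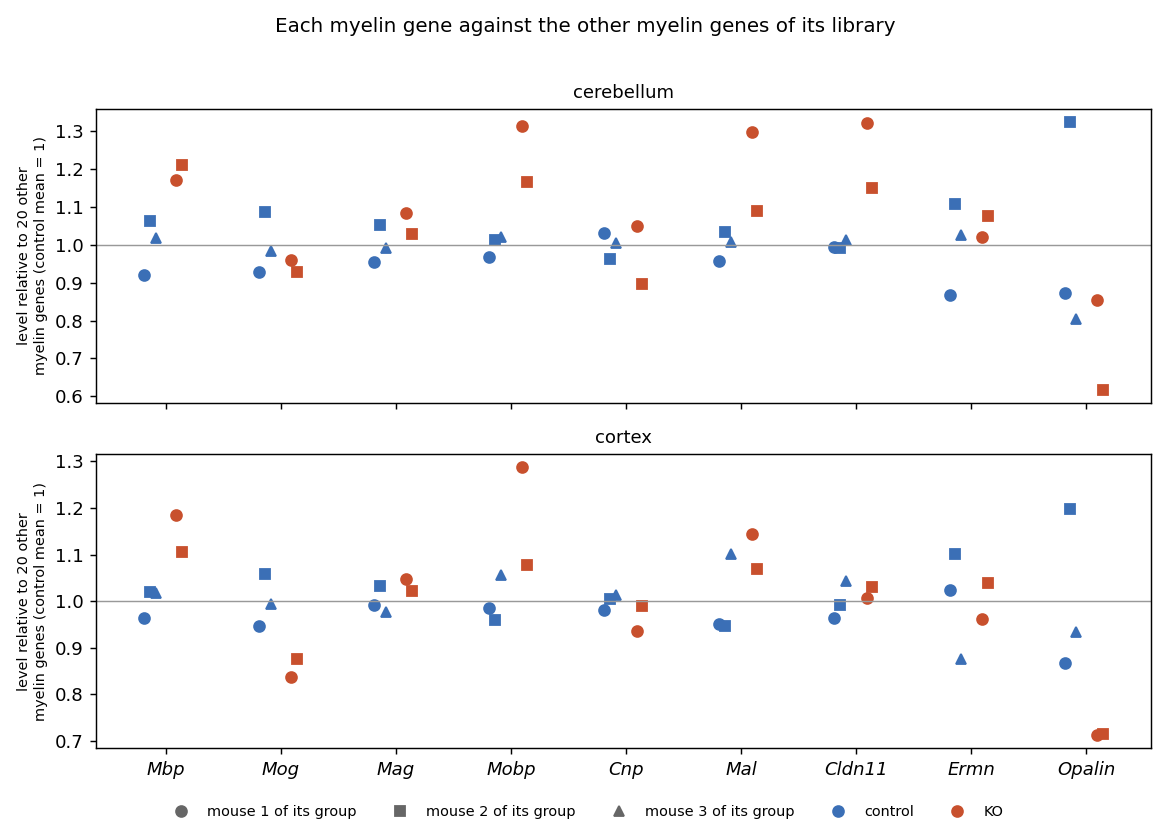
Level of each of the 9 genes relative to the geometric mean of 20 other myelin genes of the same library, divided by the control mean of the tissue (grey line at 1), with controls in blue, KO libraries in red and a marker shape for the mouse number within its group. Mbp and Mobp lie above all controls in both tissues, and Mog and Opalin lie below all controls in cortex.

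Other genes of the lineage were followed as lists. Of the 20 other myelin and oligodendrocyte genes, none was called between KO and control in either tissue, with median log2 fold changes of 0.11 in cerebellum and -0.39 in cortex. In these 20 genes, too, all cortex values were below 0, and the median was -0.01 without control 2. Ppp1r14a was called higher in cerebellum without control 2, at 0.52 (adjusted p = 0.0343), and control 2 was its highest control there. Of the 8 genes of galactolipid and sulfatide metabolism, which make and break down the glycolipids of myelin and include Ugt8a and Fa2h, none was called, with medians of 0.04 in cerebellum and -0.22 in cortex.

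Among the 11 oligodendrocyte lineage transcription factors, Nkx6-2 was the only gene of the lineage lists to be called between KO and control. Nkx6-2, a homeodomain factor of the lineage, was at 70.7, 77.4 and 65.6 CPM in control and 42.5 and 47.3 CPM in KO cerebellum. The groups did not overlap, and it fell by 0.67 on the log2 scale (SE 0.09, adjusted p = 0.00862), and by 0.61 without control 2 (adjusted p = 0.00891). In cortex Nkx6-2 was at 21.1, 36.4 and 16.9 CPM in controls and 17.7 and 20.5 CPM in KO mice (log2 fold change -0.37 ± 0.30). Of the exonic bases of Nkx6-2, 12.9% were shared with Inpp5a, so reads of Inpp5a could be counted for it. The part of such reads in its level and its fall was not tested. Nkx2-2, of the same list, was at 8.21, 10.1 and 10.2 CPM in control and 4.06 and 6.79 CPM in KO cerebellum, without overlap. Its log2 fold change of -0.80 was the lowest of the 11, but it was not called. In cerebellum 7 of the 11 values were above 0. Myrf, a master regulator of myelin genes, was at 36.8, 47.1 and 44.8 CPM in control and 49.7 and 63.8 CPM in KO cerebellum, without overlap (log2 fold change 0.40, adjusted p = 0.233). Sox10 overlapped between genotypes in cerebellum, at 27.1, 39.0 and 27.4 CPM in controls and 25.2 and 43.5 CPM in KO mice. The median of the 11 factors was 0.23 in cerebellum and -0.13 in cortex.

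The earlier stages of the lineage were not called either. Of the 8 precursor genes, none was called in cerebellum (median 0.22) or cortex (median 0.28). Pdgfra, the growth factor receptor of precursors, was at 29.8, 20.2 and 26.6 CPM in control and 27.5 and 34.4 CPM in KO cerebellum. Among 6 genes of newly formed oligodendrocytes (medians 0.18 and 0.21), Bcas1 was at 128, 177 and 153 CPM in control and 192 and 246 CPM in KO cerebellum, without overlap, and its log2 fold change was 0.51 ± 0.14 (adjusted p = 0.148). Without control 2 the log2 fold change of Bcas1 was 0.64 (adjusted p = 0.0437, called) in cerebellum and 0.37 (adjusted p = 0.0173, short of the required fold change) in cortex. In both tissues control 2 was the highest control for Bcas1. Enpp6, of the same list, went the other way in cortex, at 5.75, 15.4 and 7.98 CPM in controls and 4.64 and 5.20 CPM in KO mice. Its log2 fold change there was -0.98, and -0.46 without control 2, and it was not called in either fit. The other 5 of these 6 genes had values above 0 in cortex with all libraries. Of 7 genes of peripheral myelin, Pmp2 had no count in any library, and none of the 4 tested in cerebellum or the 5 tested in cortex was called between KO and control. All lists were read in the same libraries, so their values are not independent of each other.

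After the mean of each tissue was subtracted, the 9 genes rose and fell together over the 10 libraries. The 36 pairwise Pearson correlations had a median of 0.905 and ranged from 0.559, between Mobp and Opalin, to 0.984, between Mag and Ermn. Opalin followed the others least, with a median of 0.735. These are descriptions over 10 libraries that share mice, depth and, above all, the high values of control 2. With the mean of the 9 genes, the median correlation was 0.908 for the 20 other myelin genes, 0.863 for the galactolipid genes, 0.564 for 10 transcription factors, 0.597 for the striatum genes, -0.02 for 5 genes of newly formed oligodendrocytes and -0.54 for the precursor genes, beside 0.03 over all genes compared.

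Among the 8 genes outside the set with the highest correlation to its mean were Fth1 (0.985), S1pr5 (0.985), Aspa (0.984), Rnf5 (0.978), Fa2h (0.978), Rnf7 (0.977) and Polr2c (0.976). Aspa was among the 20 other myelin genes and Fa2h among the galactolipid genes. Fth1, which encodes ferritin heavy chain and is the most abundant of those in no list, was at 1116, 1466 and 1268 CPM in control and 1333 and 1524 CPM in KO cerebellum, and at 1598, 2189 and 1577 CPM in control and 1551 and 1592 CPM in KO cortex. Its order of controls was that of the 9 genes in cerebellum, and control 2 was again the highest in cortex. S1pr5, a sphingosine phosphate receptor of oligodendrocytes, was at 15.6, 26.2 and 14.9 CPM in cortex controls and 15.3 and 15.0 CPM in cortex KO libraries.

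Because the genes moved together, the 250 bases before their RefSeq start sites (GRCm38.p6) were searched for short binding motifs of lineage factors. An entry was found for 8 of the 9 genes, all but Mbp. The letters CTGGCAC or CTGGTAC, bound by MYRF, occurred on either strand in 3 of the 8 (Mog, Mag and Cnp), beside 5.92% of 32807 promoters. The letters ACAAAG or ACAATG, bound by SOX factors, occurred in 5 of the 8 (Mag, Mobp, Cnp, Ermn and Opalin), beside 25.3%, and CAGCTG, bound by OLIG2, in none of the 8, beside 13.0%. Neither the MYRF nor the SOX letters overlapped another match. The stretches shown run from position -140 to -41 in the genes with MYRF letters and in Opalin, the gene that followed the set least, and from -250 to -111 in Mobp, which held 6 SOX matches. The sequences run 5′ to 3′ along the gene's strand, and capitals mark the motif letters, with SOX letters on the opposite strand appearing as CTTTGT and MYRF letters on the opposite strand of Mog as GTACCAG.
Mog, MYRF letters (chr17:37023439-37023538, minus strand): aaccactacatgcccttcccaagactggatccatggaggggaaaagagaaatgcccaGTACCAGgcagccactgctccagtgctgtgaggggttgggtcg
Mag, SOX and MYRF letters (chr7:30914904-30915003, minus strand): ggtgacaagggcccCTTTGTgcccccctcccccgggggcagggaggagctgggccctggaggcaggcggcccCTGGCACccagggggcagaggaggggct
Cnp, MYRF letters (chr11:100574799-100574898, plus strand): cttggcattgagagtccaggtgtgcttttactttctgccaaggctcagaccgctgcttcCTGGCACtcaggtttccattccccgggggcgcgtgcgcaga
Opalin, SOX letters (chr19:41077154-41077253, minus strand): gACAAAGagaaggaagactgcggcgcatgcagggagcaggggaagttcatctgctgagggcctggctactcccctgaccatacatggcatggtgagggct
Mobp, SOX letters (chr9:120149492-120149631, plus strand): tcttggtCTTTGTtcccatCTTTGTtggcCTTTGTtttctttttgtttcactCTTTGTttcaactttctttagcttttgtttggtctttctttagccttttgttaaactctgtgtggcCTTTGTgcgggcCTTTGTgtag
The MYRF letters lay at positions -83, -68 and -81 of Mog, Mag and Cnp. In cerebellum these 3 genes overlapped between genotypes, both in CPM and on the relative scale. In cortex Mog was below all controls on both scales and Cnp only in CPM, while Mag overlapped on both. A match of letters is a description of these windows and was not tested for binding.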

How the data were processed

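RNA was sequenced from cerebellum and cortex of 5 mice (3 controls, 2 KO, 10 libraries). The deposited values are raw counts per gene, 1 table per library. By the study's account the authors used STAR to align read pairs to GRCm38, and per the file headers exonic pairs were counted by featureCounts of Subread 2.0.1, ignoring strand. A read pair overlapping several genes was counted for each, so overlapping genes share reads.

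The 55536 mouse gene entries were used. The other entries held 0.160% to 0.926% of counts and were left out. Groups came from the labels. The 9 genes were the given set, and the members and all lists were chosen with earlier results of these data known. edgeR 4.0.16 in R 4.3.3 fitted counts with TMM scaling, a count minimum of 10 (filterByExpr) and the quasi-likelihood F test. KO was compared with control within each tissue (5 libraries), and tissues and the difference of KO effects in 1 fit of all 10. Calls required a p under 0.05 after Benjamini-Hochberg adjustment over all tested genes, and a log2 fold change beyond 0.5 in either direction (difference of KO effects: adjusted p alone). The fold changes within a tissue use scaling within that tissue, while printed CPM use all 10 libraries. The SE is the log2 fold change over the square root of F. The scripts recovered known changes in simulated data, where all genes had the same spread and no mouse stood apart. The planted changes were larger than the KO effects of the 9 genes, so the simulation does not give the power for these genes.

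The named genes were all 9, Snx14, called genes of the lineage lists, otherwise some of the 5 most abundant of a list, and the 8 genes most alike (mean CPM of at least 5, log2 of CPM + 0.1). Some genes under this rule are not reported here. Ppp1r14a, Nkx2-2, Enpp6 and Slc1a3 were named after their values were seen, Ppp1r14a as the only other lineage call without control 2. TPM used union exon lengths. The biological coefficient of variation, a common value over all tested genes that leaves out counting error, was 0.121 in cerebellum and 0.141 in cortex. Alternatives were DESeq2 1.42.0, other scaling, no filter, leaving out each library and blocks. Scaling to 20 myelin genes and leaving out the mouse of control 2 were added after seeing the data. Deviations from the group means in the 2 tissues of a mouse, paired through the animal numbers of the labels, correlated at 0.164 to 0.369 (all 5 mice). The deviations of 2 KO libraries mirror each other, so both KO mice necessarily had the same value (0.326). The values of the controls are not independent either.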

Additional observations from a re-analysis of the deposited data

How the results depend on the processing

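The 3 genes called between tissues in controls kept their direction in all 17 alternatives. With 2 KO mice, a gene that missed the threshold is not shown to be unchanged, and Opalin, with 109 to 727 counts, is the least precise of the 9. Fits without a count filter gave many more calls, and the cause was not tested. For KO against control in cerebellum the adjusted p depended on the fit. Over the 11 alternatives its lowest value was under 0.05 for Cldn11, Mal, Mobp and Mbp. Of the 9 genes only Cldn11 was called, in 1 alternative, and the others stayed short of the required fold change where their adjusted p was that low. Alternatives that leave out a KO library have no spread within KO.

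Counts of called genes moved as follows. KO against control in cerebellum called 302 genes, 842 with no filter, 147 when scaled to the 20 myelin genes and 133 to 400 when leaving out 1 library. In cortex 0 became 49 with DESeq2, 380 with no filter, 10 when scaled to the 20 genes and 0 to 98 when leaving out 1 library. For the difference of the KO effects 21 became 221 with DESeq2, 599 with no filter, 2 when scaled to the 20 genes, 198 without the mouse of control 2 and 3 to 117 when leaving out 1 library. Of the 9 genes, none became 0 to 1 called in cerebellum when leaving out 1 library, 2 in cortex with no filter (Mog and Opalin), 5 for the difference of KO effects with no filter, and, between tissues in KO mice, 2 with DESeq2, 1 with no scaling, 2 with no filter, 1 when scaled to the 20 genes (median -0.39), 2 without the mouse of control 2 and 0 to 2 when leaving out 1 library.

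With the replicate number as a block, KO against control called 181 genes in cerebellum and 3 in cortex, and none of the 9 in either. Equal numbers mark different mice there, and their deviations correlated at -0.03 to 0.11. Mice of equal number also shared the high or low Xist level, so this block separates that split too. With the animal as a replicate block, 128 genes differed in KO effect and 2 of the 9 were called between tissues in KO mice. It changed no other call of the 9.

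Directions of values that were not called also turned. In cerebellum, the KO effect on Mog was 0.013 without scaling and that on Cnp -0.039 when scaled to the 20 genes, and leaving out 1 library gave -0.20 to 0.19 for Mog, -0.016 to 0.33 for Mag, -0.048 to 0.14 for Cnp and -0.11 to 0.37 for Ermn. In cortex, scaling to the 20 genes gave 0.19 for Mbp, 0.048 for Mag, 0.24 for Mobp, 0.15 for Mal and 0.026 for Cldn11, and leaving out 1 library gave -0.33 to 0.19 for Mbp, -0.48 to 0.056 for Mag, -0.25 to 0.19 for Mobp, -0.35 to 0.093 for Mal, -0.48 to 0.0058 for Cldn11 and -0.61 to 0.057 for Ermn. The upper value came from leaving out control 2 in each of these 6. Between tissues in controls, leaving out 1 library gave -0.34 to 0.18 for Mbp, -0.36 to 0.17 for Mag, -0.032 to 0.45 for Cnp and -0.31 to 0.35 for Ermn, leaving out the mouse of control 2 gave 0.013 for Mbp, 0.014 for Mag and 0.14 for Ermn, and no scaling gave 0.023 for Ermn. Between tissues in KO mice, scaling to the 20 genes gave -0.18 for Mbp, -0.40 for Mog, -0.22 for Mag, -0.39 for Mobp and -0.065 for Ermn, no scaling gave 0.063 for Cldn11, and leaving out 1 library gave -0.045 to 0.30 for Mog and -0.12 to 0.067 for Cldn11. The difference of the KO effects on Opalin was -0.071 to 0.92 when leaving out 1 library.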
